A study of Mus musculus with 6 samples.

Results

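The Six-, Eya- and Dach-family genes encode 3 kinds of nuclear protein that act as 1 transcriptional network, and 10 of them were followed in the mandibular arch of mouse embryos with and without Tbx1: Six2, Six3, Six4, Six5, Eya1, Eya2, Eya3, Eya4, Dach1 and Dach2. They were chosen by family name, and earlier results of these data were known when the list was drawn up. A probe set was used if the array annotation gave it exactly 1 gene symbol, and where a gene had several, the one with the highest mean over all arrays stood for it. Each of the 10 genes had 1 probe set, so this choice was never exercised, and the 10 genes are 10 of 19938 measured. The tissue was the mandibular arch, the lower portion of the first pharyngeal arch, at embryonic day 9.5 (E9.5), from C57BL/6 embryos that were either Tbx1+/+ (wild type, 3 arrays) or Tbx1-/- (Tbx1 null, 3 arrays). The gene lost in the null embryos encodes a T-box factor that shapes the pharyngeal arches and pouches. The labels name no driver or tissue for the deletion, and the exons removed are not named in the sources used here. To gain RNA, the arches of 3 embryos of a genotype were combined, and no source used here says whether each array had its own pool. The p-values therefore measure the spread between arrays, part of which may be technical.

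Six-family proteins are homeodomain transcription factors that bind DNA through a homeodomain and contact partners through an adjoining Six-type domain. Eya proteins do not bind DNA themselves: they are recruited by several Six-family proteins as coactivators and carry a protein phosphatase of the haloacid dehalogenase type. Dach proteins, relatives of the Ski and Sno corepressors, meet the same complexes and can turn activation into repression. In the pharyngeal region the network is known for its roles in cranial placodes, in the pharyngeal pouches and their glands, in head muscle and, for Six2, in the mesenchyme of the face.

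The 250 bases upstream of the annotated start are shown for Six2, whose values differed most between the genotypes, for Six3, its chromosomal neighbour, and for Six4, the only one of the 4 Six-family members with a searched word in a window (1 of its 2 windows is shown). The sequences are RefSeq's on build GRCm38.p6, read 5′ to 3′ on the gene's own strand. Capitals mark a match to 1 of 4 searched words, and a sequence wholly in lower case holds none of them. Six2 lies at chr17:85688255-85688504 on the minus strand, Six3 at chr17:85620584-85620833 on the plus strand and Six4 at chr12:73113246-73113495 on the minus strand.
Six2: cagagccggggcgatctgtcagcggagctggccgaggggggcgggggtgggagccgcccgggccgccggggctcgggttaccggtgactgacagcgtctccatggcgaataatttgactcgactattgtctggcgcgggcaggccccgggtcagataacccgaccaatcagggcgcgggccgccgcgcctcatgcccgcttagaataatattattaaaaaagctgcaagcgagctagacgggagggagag
Six3: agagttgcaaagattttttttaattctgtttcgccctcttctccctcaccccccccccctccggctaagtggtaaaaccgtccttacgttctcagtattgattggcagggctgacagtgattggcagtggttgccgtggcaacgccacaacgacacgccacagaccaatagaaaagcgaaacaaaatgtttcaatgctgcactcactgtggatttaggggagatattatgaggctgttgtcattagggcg
Six4: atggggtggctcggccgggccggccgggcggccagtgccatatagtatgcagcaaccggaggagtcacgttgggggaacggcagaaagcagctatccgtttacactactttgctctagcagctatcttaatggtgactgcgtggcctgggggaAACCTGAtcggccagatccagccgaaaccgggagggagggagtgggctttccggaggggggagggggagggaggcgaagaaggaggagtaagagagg

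Levels are on a log2 scale, 1 value per probe set and array, normalised between arrays, with array medians of 7.98 to 8.04. Differences below are Tbx1 null minus wild type on that log2 scale, tested with limma over all 19938 genes, and adjusted p-values are Benjamini-Hochberg values over all of them with a threshold of 0.05. Tbx1 itself (probe set 10438347) lay between 11.31 and 11.64 on the wild-type arrays and between 9.39 and 9.63 on the null arrays, a log2 change of -1.94. Of the marker lists read for the tissue, 14 mandibular mesenchyme genes had mean levels of 10.82 to 11.06 on wild-type and 11.08 to 11.19 on null arrays, and 10 surface ectoderm genes 10.72 to 10.88 and 10.87 to 10.96. Levels of different probe sets cannot be set against each other, and no background probes were used here, so these values do not show which tissue made up more of the sample. Over all genes, 0.16% passed the threshold. With an unadjusted limma p under 0.05, 1097 genes were higher and 786 lower in null, so that 58.3% were higher; this share was 38.8% after quantile normalisation again and 33.3% after each array was centred on its median.

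None of the 10 genes passed the adjusted threshold in the fit as designed, beside 0.16% of all genes (0.0853% higher and 0.0752% lower). With limma and no adjustment, 0 members were higher and 1 was lower at a p under 0.05, beside 9.44% of all genes in either direction. That member was Six2; by direction, 5.5% of all genes were higher and 3.94% lower at that level. Its 3 null arrays all lay below its 3 wild-type arrays, which held for no other member, while 15.4% of all genes had genotypes that did not overlap (8.36% with null higher and 7.06% with null lower). The shares of 1 in 10 are thus near the background, and the description that follows concerns the size of each difference. The log2 change was negative for 6 members and positive for 4, with a median of -0.016 beside -0.0061 over all genes. Of the 10 changes, 8 were smaller than 0.1 in size. Only Six2 and Eya2 lay outside the range from -0.14 to 0.16 that spans the 5th to 95th percentile of all genes.

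**Figure D1:**
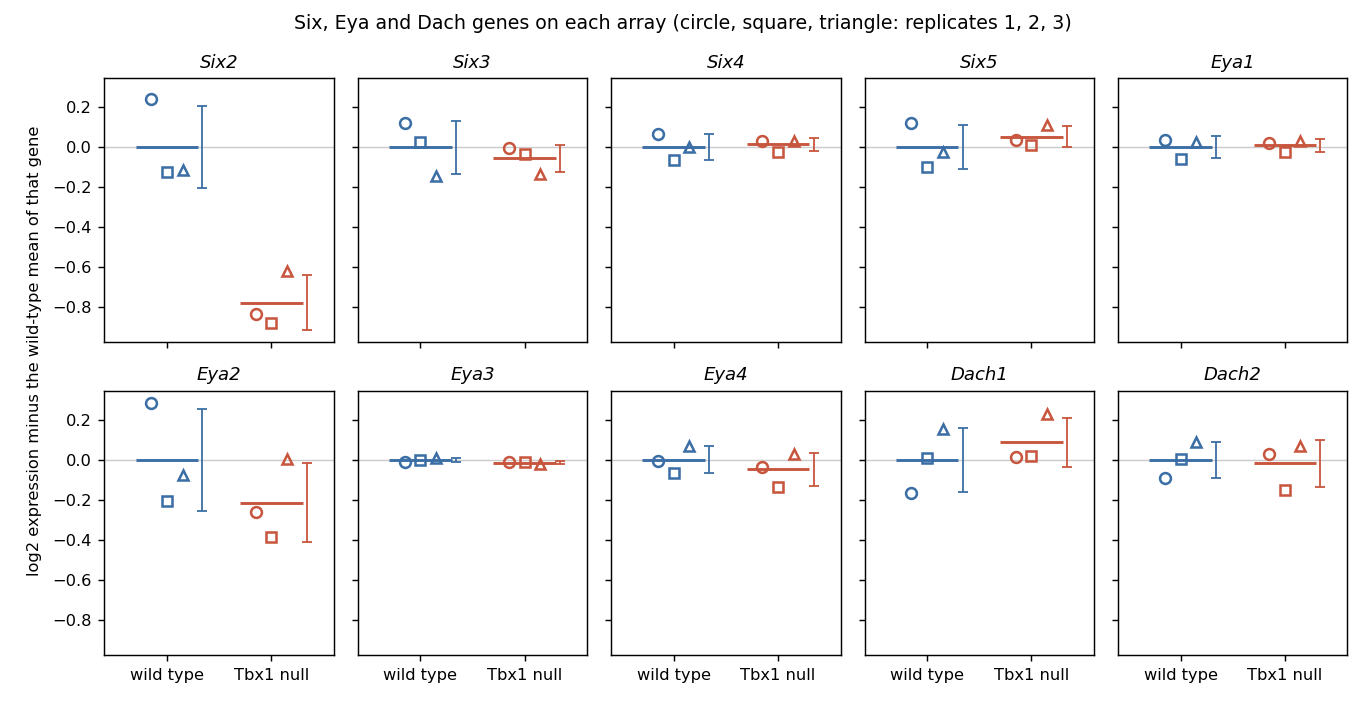
Log2 expression of the 10 genes on each array, with the wild-type mean of each gene set to 0; blue is wild type, red is Tbx1 null, symbols are replicates, horizontal lines are means and bars are ± 1 SD (n = 3). The Six2 null arrays lie apart from the wild-type arrays, and the genotypes overlap in the other 9 panels.

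Six2 (probe set 10453394, Entrez gene 20472), which keeps mesenchymal progenitors undifferentiated in the kidney and is active in facial mesenchyme, read 9.98, 9.62 and 9.63 on wild-type replicates 1, 2 and 3. On the Tbx1 null arrays it read 8.91, 8.86 and 9.12. The lowest wild-type array stood 0.50 above the highest null array, and within each genotype 1 array lay above the other two, replicate 1 in wild type and replicate 3 in null. The means were 9.74 ± 0.21 (SD, n = 3) and 8.96 ± 0.14 (SD, n = 3), a log2 change of -0.78 with a 95% confidence interval of -1.03 to -0.52, or 1.71-fold. In these bulk samples fewer cells of a type and less RNA per cell cannot be told apart.

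The limma adjusted p of Six2 was 0.0577, just beyond the threshold. By size its difference ranked 27th of 19938 genes, and 15th among decreases, and 28 of the 32 genes that passed the threshold had smaller ones. Its SE of 0.11 was larger than the median SE of 0.058 over all genes. An exact two-sided permutation test over the 6 arrays gave p = 0.1, the smallest that 3 against 3 arrays allow. Six2 was lower in null under every alternative tried, and it passed the threshold under 3 of them: with each array centred on its median (limma adjusted p = 0.0322), with an intensity trend and robust variances (0.0132) and with array weights (0.00757). Those settings called 46, 96 and 334 genes over all, against 32 as designed. With 1 array left out it never passed, the adjusted p running from 0.081 to 0.253.

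**Figure D2:**
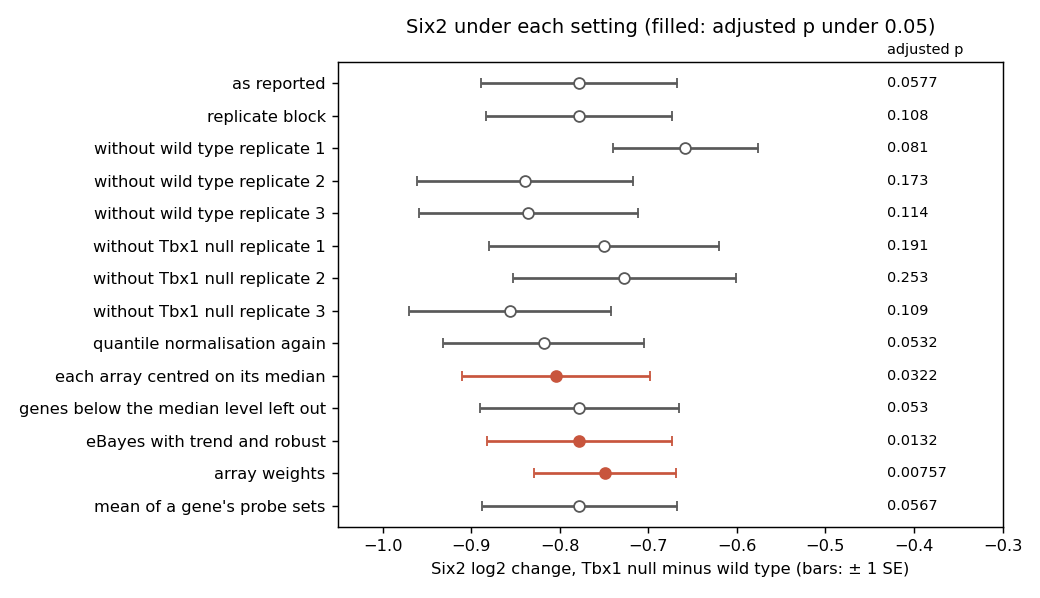
Log2 change of Six2 (Tbx1 null minus wild type, horizontal axis, bars ± 1 SE) as reported and under each alternative setting (vertical axis), with the limma adjusted p printed at the right. All 14 points lie between -0.86 and -0.66, and 3 of them pass the threshold.

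The other Six-family genes differed little between the genotypes. Six3, a factor of the anterior forebrain and eye, read 8.34, 8.24 and 8.08 in wild type and 8.21, 8.19 and 8.08 in null (log2 change -0.057, 95% interval -0.23 to 0.11). Wild-type replicate 1 was its highest array, and the null arrays lay inside the wild-type range. Six4, which acts in placodes and muscle progenitors, read 11.34, 11.21 and 11.27 in wild type against 11.30, 11.25 and 11.30 in null. The 3 null values of Six4 again lay between the wild-type extremes, and its log2 change of 0.013 had a 95% interval of -0.10 to 0.13. Six5, whose gene adjoins the repeat expanded in myotonic dystrophy, read 9.84, 9.62 and 9.70 in wild type and 9.75, 9.73 and 9.83 in null (log2 change 0.052, 95% interval -0.097 to 0.20). The lowest limma adjusted p of the 3 was 0.866, that of Six5.

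Six6, a relative of Six3 with roles in retina and pituitary, was read beside the members. Six6 (probe set 10396367) read 7.11, 7.07 and 7.02 in wild type and 6.97, 6.90 and 6.93 in null. The genotypes did not overlap, but the difference was small, with a log2 change of -0.13 (95% interval -0.24 to -0.026, limma adjusted p = 0.416). Its level lay below the median of 8.55 over all genes, as did those of Six3 and Dach2, and very dim probe sets tend to understate changes.

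**Figure D3:**
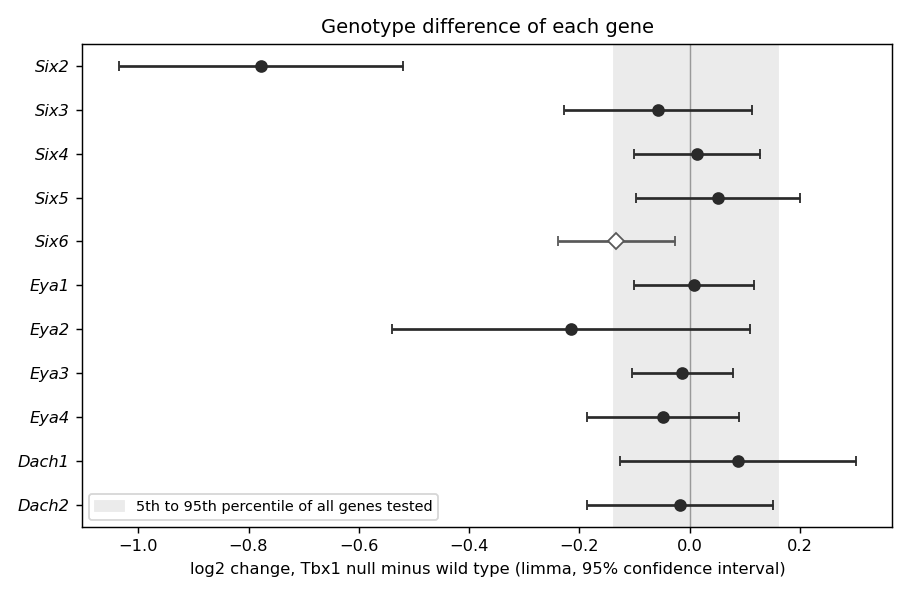
Log2 change between Tbx1 null and wild type (horizontal axis) with its 95% confidence interval for the 10 genes (filled circles) and Six6 (open diamond); the grey band spans the 5th to 95th percentile of all genes. Six2 lies at -0.78, Eya2 at -0.21 with the widest interval, and the other intervals cross 0 apart from that of Six6.

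Among the Eya genes, Eya1 and Eya3 were the steadiest. Eya1, which is required for thymus, parathyroid and ear and is mutated in branchio-oto-renal syndrome, read 11.79, 11.69 and 11.77 in wild type and 11.77, 11.72 and 11.78 in null. All 6 arrays of Eya1 lay within 0.099 of each other, and its log2 change of 0.0085 had a 95% interval of -0.10 to 0.12. Eya3, the most widely expressed member of the family, spanned 0.033 over the 6 arrays, from 12.10 to 12.14, where the median gene spanned 0.21. Its log2 change was -0.013 (95% interval -0.10 to 0.078). Eya4, linked to deafness and cardiomyopathy, read 9.15, 9.09 and 9.23 in wild type and 9.12, 9.02 and 9.18 in null, with overlapping genotypes and a log2 change of -0.048 (95% interval -0.19 to 0.090).

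Eya2, a coactivator active in cranial placodes and muscle, varied most within a genotype. It read 10.02, 9.53 and 9.66 on wild-type replicates 1, 2 and 3 and 9.48, 9.35 and 9.74 on the null arrays. Null replicate 3 was above wild-type replicates 2 and 3, so the genotypes overlapped. The log2 change of -0.21 had a 95% interval of -0.54 to 0.11 (limma adjusted p = 0.704), an interval whose lower end overlaps that of Six2, which ends at -0.52. Its size rested on single arrays, being -0.073 without wild-type replicate 1 and -0.32 without null replicate 3.

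The Dach genes differed by less than their spread. Dach1, a corepressor of limb, eye and endocrine tissue, read 8.43, 8.61 and 8.75 in wild type and 8.62, 8.62 and 8.83 in null. Here wild-type replicate 1 was the lowest array, not the highest as for Six2 and Eya2, and the log2 change of 0.087 had a 95% interval of -0.13 to 0.30. Dach2, its X-linked relative, read 7.35, 7.44 and 7.53 in wild type and 7.47, 7.29 and 7.51 in null. Its log2 change was -0.018 (95% interval -0.19 to 0.15). Leaving out Six2 and Eya2, the intervals of the 8 other members together ran from -0.23 to 0.30, so that changes beyond 1.17-fold lower or 1.23-fold higher lay outside all of them. These limits hold for changes as measured, and Six3 and Dach2 lay below the median level of 8.55. Leaving out 1 array moved the small changes of Dach1, Six5 and Eya4 by more than 1.5 times. Dach1 had a change of 0.0054 without wild-type replicate 1, 0.017 without null replicate 3 and 0.16 without wild-type replicate 3. Six5 ran from 0.0030 without wild-type replicate 2 to 0.11 without wild-type replicate 1, and Eya4 from -0.0036 without null replicate 2 to -0.086 without null replicate 3, and none passed in any of these fits.

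The genes most like Six2 and Eya2 were found by the mean absolute difference between log2 values over the 6 arrays, each gene centred on its own mean. This is a description of 6 values a gene. Nearest to Six2 were Apod (0.076), Heyl (0.080) and Ngfr (0.094), beside a mean absolute deviation of Six2 itself of 0.39. These 3 genes had log2 changes of -0.77, -0.73 and -0.70, and each passed the limma threshold (adjusted p = 0.0446, 0.0133 and 0.0142). Such changes follow largely from picking genes near Six2 on the same arrays, and are no separate evidence. Apod lost the call with any array but wild-type replicate 1 left out (adjusted p from 0.105 to 0.206), Heyl without wild-type replicate 2 or null replicate 1 or 2 (0.104, 0.0796 and 0.057), and Ngfr without wild-type replicate 2 or any null array (0.06 to 0.133). With the replicate block none of the 3 passed (0.0827, 0.0628 and 0.0663). Apod, a lipocalin gene, has its highest array in wild-type replicate 1, as Six2 does, and Heyl, a Notch target, has its highest null array in replicate 3. Nearest to Eya2 were Fzd7 (0.031), Enpp3 (0.034) and Dusp4 (0.038), beside a deviation of 0.18 of Eya2 itself. All 3 share the high value on wild-type replicate 1 and the highest null value on replicate 3, and none passed the limma threshold (adjusted p = 0.761, 0.653 and 0.601).

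**Figure D4:**
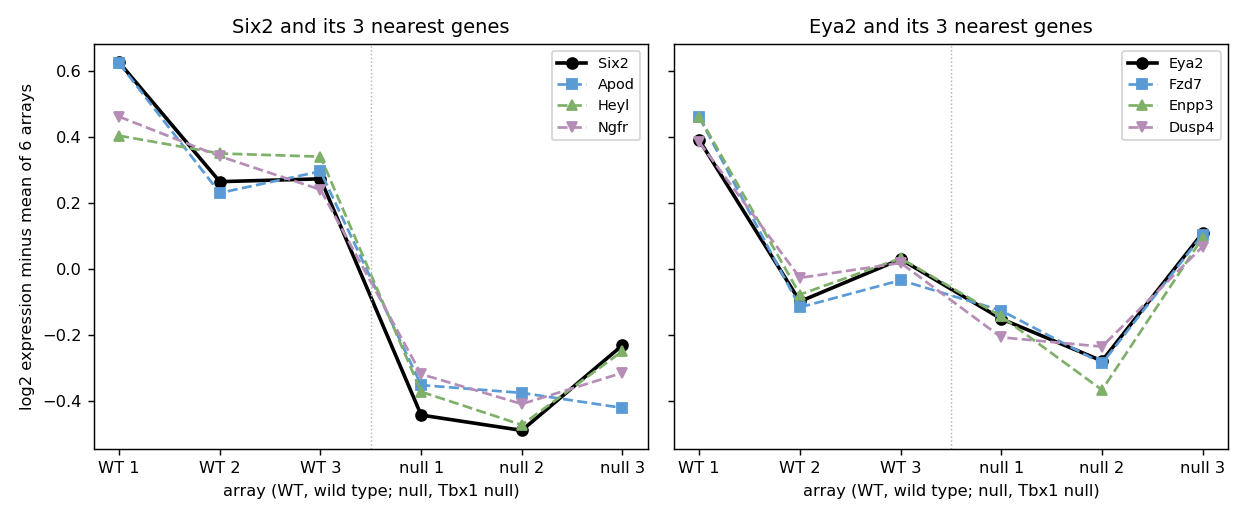
Log2 expression on each array minus the mean of the gene over 6 arrays, for Six2 (left) and Eya2 (right) in black and for the 3 nearest genes of each in colour; wild-type arrays stand left of the dotted line. The Six2 profile steps down between genotypes, while the Eya2 profile is led by wild-type replicate 1.

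Six2 and Six3 are adjacent protein-coding genes, and the genes around Six2 were read to see whether they differed too; these neighbours were chosen after their values were seen. Beyond Six3 lay Camkmt, which had no value here, and then Prepl, with a log2 change of -0.0060. On the other side, Srbd1, Prkce and Epas1 had changes of -0.015, 0.040 and 0.14. None of the 5 neighbours with a value, Six3 included, passed the threshold (limma adjusted p from 0.562 for Epas1 to 0.984 for Prepl). The genotypes overlapped in all 5.

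Promoter windows of 300 bases, from 250 before to 50 after the start, were given for 8 of the 10 genes in 11 windows, and Eya1 and Eya2 had no entry. Both strands were searched for 4 words, the T-box half-site GGTGTGA, the MEF3-type site TCAGGTT, the Six-family core TGATAC and TATAAA, none of which contains another. The T-box word was in 0 of the 11 windows and in 3.98% of 32851 promoters, and TGATAC was in 0 of the 11 and 5.46% of all. TCAGGTT was in 1 window, that of Six4 shown above, where its reverse complement starts 97 bases before the start, and in 4.07% of all promoters. TATAAA was in 1 window of Dach2 and in 13.6% of all. The Six2 window held none of these words. It was rich in CpG, with 37 CpG dinucleotides and 67.3% G and C beside medians of 7 and 52.7% over all promoters. The Six3 window held 14 CpG dinucleotides.

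The proteins that Six-, Eya- and Dach-family proteins work with were read as a list of cofactors. Of 13 measured of 14 listed, 0 passed the adjusted threshold in either direction, with a median log2 change of -0.0003. At an unadjusted limma p under 0.05 there were 3 higher and 0 lower, where 5.5% and 3.94% of all genes were, and in 3 of the 13 the genotypes did not overlap, where they did not in 15.4% of all genes. Tle5, a short Groucho-related protein, read 11.31, 11.25 and 11.30 in wild type and 11.45, 11.44 and 11.43 in null, with no overlap (log2 change 0.16, limma adjusted p = 0.265). The Ski relative Skil had a change of 0.29, with overlapping genotypes, the Groucho corepressor Tle2 one of 0.13, and the acetyltransferase gene Crebbp one of 0.075.

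The Pax genes, which act beside Six- and Eya-family genes in many organs, gave 0 called of 7 and a median of -0.18. That median was -0.070 without wild-type replicate 1 and stayed below 0 with any array left out. It was 0.29 with genes below the median level left out, which kept only Pax1 and Pax8. Its sign thus depends on which genes are kept. Pax8 had a log2 change of 0.79, from 8.26 ± 0.23 to 9.05 ± 0.66 (SD, n = 3 each), with null replicate 3 at 9.80 far above the other arrays; without that array the change was 0.42. Pax9, a gene of the pharyngeal pouches, changed by -0.50 with overlapping genotypes, by -0.28 without wild-type replicate 1 and by -0.75 without wild-type replicate 2, and Pax6 and Pax3 by -0.22 and -0.18.

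Genes reported elsewhere as targets of Six- or Eya-family proteins gave 0 called of 19 measured and 20 listed, with 14 changes below 0 and a median of -0.040. At an unadjusted limma p under 0.05, 0 were higher and 3 lower, where 5.5% and 3.94% of all genes were. In 4 of the 19 the genotypes did not overlap, all lower in null, beside 7.06% of all genes in that direction. The median of the list was -0.10 without wild-type replicate 3 and 0.0071 with genes below the median level left out. Myf5, the myogenic regulator that Six-family proteins are known to drive, read 7.50, 7.76 and 7.64 in wild type and 7.05, 7.06 and 6.81 in null. Its genotypes did not overlap, and its log2 change of -0.66 had a limma adjusted p of 0.0509. Myf5 is also on the core mesoderm marker list read below, whose median was -0.53. The growth factor gene Fgf10 changed by -0.22, Myc by -0.15 and the cyclin gene Ccna1 by -0.099, each without overlap. The myogenic genes Myod1 and Myog, on the same list, had changes of -0.12 and -0.052; they were named after their values were seen.

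**Figure D5:**
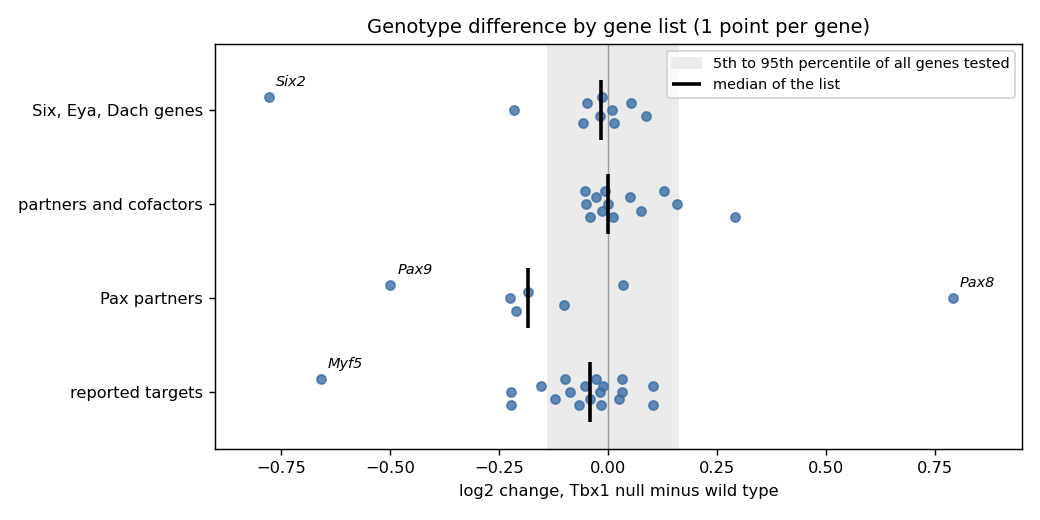
Log2 change between Tbx1 null and wild type (horizontal axis) of every measured gene of 4 lists, 1 point per gene, with the list median as a black line and the 5th to 95th percentile of all genes in grey; vertical scatter within a list carries no meaning. Six2, Myf5, Pax9 and Pax8 lie beyond 0.4 in size, and the medians run from -0.18 to -0.0003.

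Markers of cells that the dissected arch can hold were read beside these results, and their part in them was not tested. Migratory crest and glial markers had 1 of 6 measured genes lower and 0 higher by the adjusted threshold, Ngfr, beside 0.0752% and 0.0853% of all genes. The median change of the list was -0.32, and 1 of the 6 changes lay above 0. Fabp7 and Foxd3 changed by -0.50 and -0.15 with overlapping genotypes. The mean level of the 6 markers was 10.06, 9.44 and 9.55 on wild-type replicates 1, 2 and 3. On the null arrays it was 9.28, 9.22 and 9.41. Wild-type replicate 1 and null replicate 3 were thus the highest of their genotypes, as for Six2 and Eya2. The same held for Six5 and Eya1, with log2 changes of 0.052 and 0.0085. The mean levels of core mesoderm, placode, pharyngeal endoderm and surface ectoderm markers also had these 2 arrays highest, so this is not particular to crest. Those of mandibular mesenchyme, forebrain and eye, and Hox genes did not. Sox10, the crest and glial factor, read 10.21 on wild-type replicate 1 and 8.86 and 9.16 on the other wild-type arrays. Placode and cranial ganglion markers, 0 of 16 called and with a median change of -0.040, had mean levels of 7.94, 7.73 and 7.78 in wild type and 7.70, 7.75 and 7.82 in null, which overlap. Of these 16 markers, 2 rose and 2 fell with an unadjusted limma p below 0.05. Isl1 and Dcx rose, by 0.36 and 0.16, while Nefl and Neurod1 changed by -0.30 and -0.61. The genotypes were without overlap in 2 markers with null higher, Isl1 and Dcx, and in 2 with null lower. Neurod1, a neuronal bHLH factor, read 7.36, 6.41 and 6.996 in wild type and 6.17, 6.07 and 6.69 in null, which overlap (limma adjusted p = 0.485).

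Six2 is known to act in mandibular mesenchyme. Of the 14 measured markers of that tissue 1 was higher and 0 lower by the adjusted threshold, with a median log2 change of 0.13. Msx2, a homeobox gene of the distal arch, rose by 0.39 (limma adjusted p = 0.0422), a call lost with any array left out (adjusted p from 0.0865 to 0.206) and with the replicate block. Prrx2 changed by 0.23 and Hand1 by 0.50 without passing. At an unadjusted limma p under 0.05, 7 of the 14 were higher and 1 lower, where 5.5% and 3.94% of all genes were. The genotypes did not overlap in 7 with null higher and in 1 with null lower, beside 8.36% and 7.06% of all genes. Of the 14 markers 4 lay below 0, among them Gsc (-0.22, genotypes without overlap) and Dlx4 (-0.21), named after their values were seen. Core mesoderm markers, from which the jaw muscles form, had 2 of 9 lower by the adjusted threshold and a median of -0.53. One of the 2 is the deleted Tbx1 itself, and without it 1 of 8 was lower, Lhx2, with a median of -0.44. Isl1 and Ebf3, the latter named after its values were seen, went the other way, with changes of 0.36 and 0.32 and genotypes that did not overlap, and neither passed. Surface ectoderm had 0 of 10 called and a median of 0.15. With an unadjusted limma p below 0.05, 5 of these 10 rose and 0 fell. The genotypes were without overlap in 5 of them, all with null higher, so the rise was not particular to mesenchyme markers. Pharyngeal endoderm had 0 of 8 called and a median of 0.056, with 1 rising and 0 falling by the unadjusted p. Forebrain and eye markers had 1 of 8 lower, again Lhx2, and a median of -0.16, with 0 rising and 4 falling by the unadjusted p.

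Hox genes of groups 1 to 3, absent as a rule from the mandibular arch and present in the arches behind it, were read because Hoxa2 is known to repress Six2 in the second arch. Of 7 measured, 0 passed the adjusted threshold, and 2 were higher at an unadjusted limma p under 0.05, where 5.5% of all genes were. Hoxa2 read 6.53, 6.73 and 6.85 in wild type and 8.33, 7.44 and 7.66 in null (log2 change 1.11, limma adjusted p = 0.126). Hoxb2 read 8.53, 8.28 and 8.31 in wild type and 9.0003, 8.87 and 9.13 in null (log2 change 0.63, limma adjusted p = 0.0577). Neither gene overlapped between genotypes, as 8.36% of all genes did not with null higher, and the part of either in the Six2 difference was not tested.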

How the data were processed

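RNA of 3 wild-type and 3 Tbx1 null samples was measured on Mouse Gene ST arrays (Affymetrix). The authors deposited log2 values, 1 per probe set, which the submitters' processing notes credit to RMA and to Affymetrix Expression Console 1.1; RMA brings the distributions of the arrays together and so hides any shift common to most genes. No source used here gives the genome build, summary level or filters. Of 35556 probe sets 21789 had 1 gene symbol, 1621 several and 12146 none in the platform annotation, which left 19938 genes. For arrays, precision is limited by how many there are. No pair of arrays was identical.

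Genotypes were tested in a two-sided limma fit (version 3.58.1, R 4.3.3; lmFit, then eBayes) on all 6 arrays without a covariate. Tested on simulated data of 19938 genes for this comparison, the fit recovered 46 of 50 genes changed 1.5-fold, with 7 false calls of 181. Those data had independent noise and other genes changed by more, and such genes ease the adjusted threshold. The real fit called 32 genes, so its adjusted threshold was stricter, and it did not call Six2 at 1.71-fold. The share recovered is thus not the power of the real fit. The members and the 4 pathway and 8 cell type lists were chosen with earlier results of these data known. The lists held 121 distinct genes, 109 of them measured, and the others are not analysed here. Genes named are the 10 members, Six6, Tbx1, the nearest genes and up to 4 genes of lowest p per list; the neighbours of Six2 and 5 other list genes (Myod1, Myog, Gsc, Dlx4 and Ebf3) were named after their values were seen. Alternatives were a replicate block, leaving out each array, quantile normalisation again, median centring, leaving out genes below the median level, a trend with robust variances, array weights and averaging the probe sets of a gene. The exact permutation test used scipy 1.17.1. Promoters were RefSeq's on GRCm38.p6.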

Additional observations from a re-analysis of the deposited data

How the results depend on the processing

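Leaving out 1 array in turn gave 3 to 20 genes called against 32 with all arrays, 0 members called in each case, and 1 to 3 members without overlap between genotypes, beside 22.3% to 32.7% of all genes then. Six2 was among those members each time. The median log2 change of the members ran from -0.029 to 0.011, of the cofactors from 0.0017 to 0.017, of the Pax genes from -0.20 to -0.070 and of the reported targets from -0.10 to -0.025, all against the values given above. The change of Six3 ran from -0.13 to 0.0028, of Six4 from -0.019 to 0.046, of Eya1 from -0.022 to 0.027 and of Dach2 from -0.064 to 0.048, so these 4 have no settled sign. With a replicate block 6 genes were called, and Six2 had an adjusted p of 0.108. Deviations of same-numbered arrays correlated at -0.045, 0.26 and 0.15, and those of differently numbered arrays at -0.37 to 0.25. These values do not settle whether the replicate numbers pair the samples.

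An intensity trend with robust variances called 96 genes and array weights 334, each with 1 member, Six2. Median centring also called 1 member, Six2, left 2 members without overlap, Six2 and Eya3, beside 17.3% of all genes, and turned Six4 to -0.013 and Eya1 to -0.018. It moved the medians of cofactors and targets to -0.027 and -0.067. Array weights called 1 cofactor and moved the targets' median to -0.073. Of the targets 1 was called after quantile normalisation again, centring, the trend and array weights, each time Myf5. Leaving out genes below the median level gave medians of 0.29 for the Pax genes and 0.0071 for the targets, over fewer genes. The causes were otherwise not tested. Every member had 1 probe set, so averaging probe sets kept its log2 change, and a fit on each other probe set could not be run.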
